A study of Arabidopsis thaliana with 6 samples.

Results

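RSE1 (AT5G22070) and 9 related genes of the GT14-like family, given by locus, were followed in the leaf transcriptomes of *rse1-1* and L*er*. The loci were AT5G22070, AT3G52060, AT5G11730, AT1G10280, AT5G14550, AT1G11940, AT1G62305, AT1G68390, AT4G31350 and AT2G19160, which are 10 of the 33602 genes counted and 10 of the 35 genes of TAIR10.1 described as core-2/I-branching beta-1,6-N-acetylglucosaminyltransferases. The L*er* group was wild-type *Arabidopsis thaliana* of the Landsberg ecotype (WT), and the *rse1-1* group carried a C-to-T change in *RSE1*, found after EMS mutagenesis, that brings a premature stop codon. Polyadenylated RNA came from the third and the fourth leaf at 16 days after sowing, before visible yellowing. The plants were grown at 22°C with 16 h of light and 8 h of dark, and 3 libraries were made of each genotype. The mutant is a single allele of a mutagenized line, so *RSE1* and any other change that the line carries cannot be told apart here.

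Glycosyltransferases move a sugar from an activated donor onto a protein, lipid or polysaccharide. Members of the GT14 family in plants extend the sugar side chains of arabinogalactan proteins, which are glycoproteins of the cell wall and the cell surface. The GT14-like proteins, formerly known by the DUF266 domain, hold the fold of the animal core-2/I-branching enzymes, and for most of them no substrate is established. In rice, the GT14-like protein BC10 is needed for normal cell walls and the homologue OsPLS for normal leaf aging. In Arabidopsis, AtGnTL (AT3G52060) has been placed at plasmodesmata, the channels between neighbouring cells.

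The gene models of TAIR10.1 divide the 10 genes by the number of exons that carry coding sequence. *RSE1* and *AtGnTL* have a single coding exon, *AT5G11730*, *AT1G10280* and *AT1G68390* have 2, and *AT4G31350*, *AT2G19160*, *AT1G11940*, *AT1G62305* and *AT5G14550* have 10 or 11. The translated coding sequence of *RSE1*, of 362 residues, was identical to that of *AtGnTL* at 60.6% of 340 aligned positions. Its identity to the other 8 members lay between 34.5% (*AT5G14550*) and 39.9% (*AT1G68390*). Among the other pairs, *AT1G11940* and *AT1G62305* were the closest, at 74.9%, followed by *AT4G31350* and *AT2G19160* at 58.0%. Outside the members, only *AT4G32290* and *AT5G25330* of the 35 family genes have a single coding exon, and they were identical to RSE1 at 51.7% and 50.2% of the aligned positions.

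The reported stop codon follows residue 300, which places the change at codon 301 of *RSE1*, CGA at positions 7309155 to 7309157 of chromosome 5 (TAIR10.1, plus strand, exon 1). A C-to-T change of this codon gives TGA in 1 way, at the first base, C901T counted from the first base of the coding sequence, and it removes the last 62 residues. The coding sequence around this codon is shown for *RSE1* and 5 relatives, because it carries the lesion of the mutant and shows how far the family shares the site. Each window holds 39 bases of the TAIR10.1 reference, 5′ to 3′ on the coding strand, with the codon aligned to codon 301 in capitals. The windows lie at chr5:7309137-7309175 (*RSE1*, plus strand), chr3:19311155-19311193 (*AtGnTL*, minus strand), chr4:15590073-15590111 (*AT4G32290*, minus strand), chr5:3782249-3782287 (*AT5G11730*, plus strand), chr2:8313103-8313141 (*AT2G19160*, plus strand) and chr5:4691834-4691872 (*AT5G14550*, minus strand).
RSE1: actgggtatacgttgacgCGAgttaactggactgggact
AtGnTL: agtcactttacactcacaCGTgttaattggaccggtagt
AT4G32290: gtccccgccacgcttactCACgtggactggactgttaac
AT5G11730: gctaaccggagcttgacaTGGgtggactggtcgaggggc
AT2G19160: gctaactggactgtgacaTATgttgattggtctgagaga
AT5G14550: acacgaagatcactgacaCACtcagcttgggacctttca
Of the 9 other members, only *AtGnTL* encodes the same residue as *RSE1* at this codon, through CGT. The number of codons after it, 61, is the same in both genes. Its window matched that of *RSE1* at 25 of 39 bases. The other 8 members encode other residues there, followed by 67 to 90 further codons. The study's qRT-PCR primers for *RSE1*, shown because they define which part of the transcript that assay reads, both lie before the stop codon.
RSE1 forward primer: tgggatcgattcttctctgg
RSE1 reverse primer: ggtcatcaaggaaagcggta
The forward primer matches chr5:7308516-7308535 on the plus strand and the reverse primer matches chr5:7308698-7308717 on the minus strand, an amplicon of 202 bases that ends 437 bases before codon 301. Each primer had 1 exact match in the nuclear genome and none in another gene of the family.

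The libraries held 9960144 to 15244500 counts on genes. Levels are given as CPM, a gene's counts per 1000000 counts on genes after TMM scaling. A count of 0 allows up to 3 counts, or 0.195 to 0.304 CPM, a limit for counting error alone. The study calls the libraries biological replicates but the labels name no separate plants or sowings, so the p-values measure the spread between these libraries. The tissue label was checked on leaf genes. The counts of Rubisco activase (RCA) averaged 19794.5, whereas the light-harvesting genes CAB1, CAB2, CAB3 and LHCA3 and the Rubisco gene RBCS3B had averages under 1 count, although leaves use them heavily. Only unique alignments were counted, so reads that match near-identical copies of CAB1, CAB2 and CAB3 alike were left out. The authors aligned reads to a genome rebuilt for L*er*, and 124 of 265 genes of ribosomal proteins past the first 5 Mb of a chromosome had a mean under 10 counts, against 10 of 78 within it. The members are therefore given with their places and neighbours. The rows of the marker genes of a cell type did not move as one. Of the 8 leaf mesophyll markers, summed to 2331 to 2456 CPM in WT and 1201 to 1460 CPM in *rse1-1*, 3 were tested: RCA, which made up most of the sum, fell to 0.528-fold and RBCS1A to 0.783-fold, and LHCA1 was not called (1.05-fold). Of the 6 trichome markers, summed to 22.7 to 24.6 CPM in WT and 37.0 to 43.4 CPM in *rse1-1*, TTG1 rose 2.05-fold and MYB106 fell to 0.555-fold, and the other 4 were not tested. Of the 4 guard cell markers, summed to 158 to 161 CPM in WT and 183 to 194 CPM in *rse1-1*, KAT1 rose 2.05-fold, while MYB60 fell to 0.581-fold and FMA to 0.818-fold. The 3 pollen markers had no counts, and only 1 of the 4 root markers had a mean of at least 10. Among the markers at 0 were GLABRA1 (listed as MYB0), TRY and CPC of the trichome list and HT1 of the guard cell list. Each of them starts past the first 5 Mb of a chromosome, and these zeros are not read as absent cells. Of the tested markers named here, only MYB106 and MYB60 start within the first 5 Mb. RBCS1A and LHCA1 start past it and averaged 719.5 and 242.8 counts, far below RCA. Whether the rows of tested markers past the first 5 Mb hold all reads of their own genes was not tested. Their fold changes are therefore not read as changes of a cell type. The part of these cell types in the values below was not tested, and in bulk leaves fewer cells of a type and less RNA per cell cannot be told apart.

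Of the 10 members, 7 had a mean of at least 10 counts and passed the filter on low counts. All 7 differed between the genotypes. *AT5G11730*, *AT1G10280*, *AT5G14550*, *AT1G11940* and *AT2G19160* rose in *rse1-1*, by 1.29-fold to 1.53-fold in mean CPM, while *RSE1* fell to 0.362-fold and *AT4G31350* to 0.682-fold. Over all 16294 genes tested by edgeR's quasi-likelihood test, 77.0% had an adjusted p-value under 0.05, 38.8% being higher and 38.3% lower in *rse1-1*. The study, with DESeq2 at the same threshold, reported far fewer genes, most of them higher in *rse1-1*. DESeq2 called 11996 genes here, and the reason for this difference was not tested. The libraries of the genotypes did not overlap for 79.5% of the tested genes and for each of the 7 members. Being called was thus common among all genes, and nothing is read from it about the members. *RSE1* alone among them also had a log2 fold change beyond 1, as 31.8% of the tested genes did. The median log2 fold change of the 7 measured members was 0.38, beside -0.0086 over all tested genes.

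**Figure D1:**
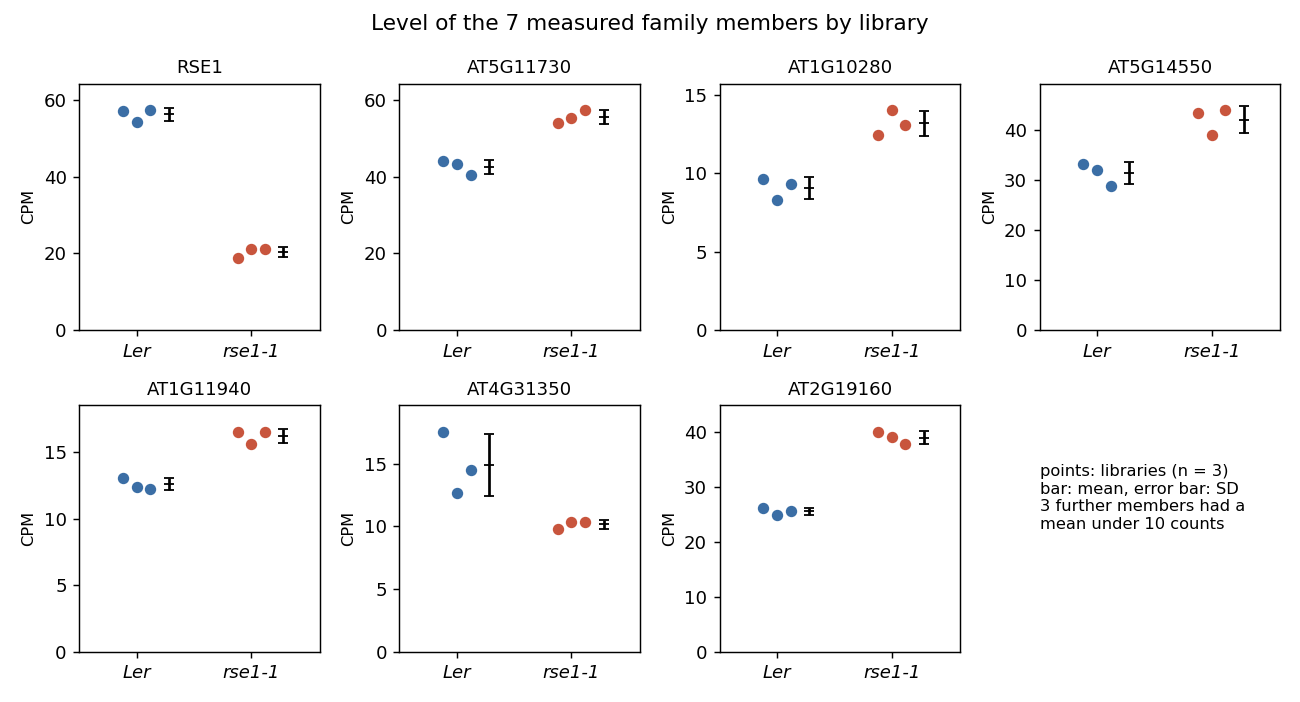
CPM of each of the 7 measured members (vertical axes, each starting at 0) in the 3 L*er* and the 3 *rse1-1* libraries, with points for libraries and the mean ± SD beside them. RSE1 and AT4G31350 lie lower in all *rse1-1* libraries than in all L*er* libraries, and the other 5 genes lie higher.

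*RSE1* was the strongest change among the measured members. It had 57.1, 54.3 and 57.4 CPM in WT and 18.9, 21.2 and 21.0 CPM in *rse1-1*, or 56.3 ± 1.71 against 20.4 ± 1.30 CPM (SD, n = 3). The lowest WT library was above every mutant library by more than the spread within either genotype. The log2 fold change was -1.47 (SE 0.0832, adjusted p = 5.33e-10 from edgeR with Benjamini-Hochberg adjustment), and 979 of all tested genes, or 6.01%, were called with a fold change at least this far down. Reads were still counted at the locus in the mutant, with 290, 219 and 264 counts in *rse1-1*, against 563, 552 and 667 counts in WT. Counts per gene do not tell which base a read carried, so they do not show the stop codon itself.

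Each of the other 6 measured members was compared with *RSE1* within libraries. The log2 ratio of *RSE1* to a member was lower in *rse1-1* for all 6, without overlap between the genotypes. The difference was smallest against *AT4G31350*, at -0.93, and lay between -2.08 and -1.83 against the other 5. Each of these 6 comparisons had p = 0.1 in a two-sided exact permutation test, which is the smallest value that 3 against 3 libraries can give, and also 0.1 after Benjamini-Hochberg adjustment. For the 5 members that rose, this outcome was fixed by the levels already given, so the test adds no support.

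In level per length, *RSE1* stood first among the measured members in WT, at 29.9 ± 0.906 CPM per kilobase of exon (SD, n = 3). *AT5G11730* followed at 19.9 ± 0.866, *AT5G14550* at 15.6 ± 1.13 and *AT2G19160* at 9.28 ± 0.229 CPM per kilobase. *AT1G11940* (7.04 ± 0.251) and *AT4G31350* (6.73 ± 1.11 CPM per kilobase) overlapped in their libraries, and *AT1G10280* was lowest at 4.70 ± 0.369 CPM per kilobase. In *rse1-1*, the level per length of *RSE1* was 10.8 ± 0.692 CPM per kilobase (SD, n = 3), in the fourth place. There *AT5G11730* led at 26.0 ± 0.811, and no neighbours in the order overlapped. The length joins all annotated exons of a gene, and *RSE1* has 1 coding model against 4 for *AT5G14550* and for *AT4G31350*. The order also takes each row to hold all reads of its own gene, which was not tested.

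**Figure D2:**
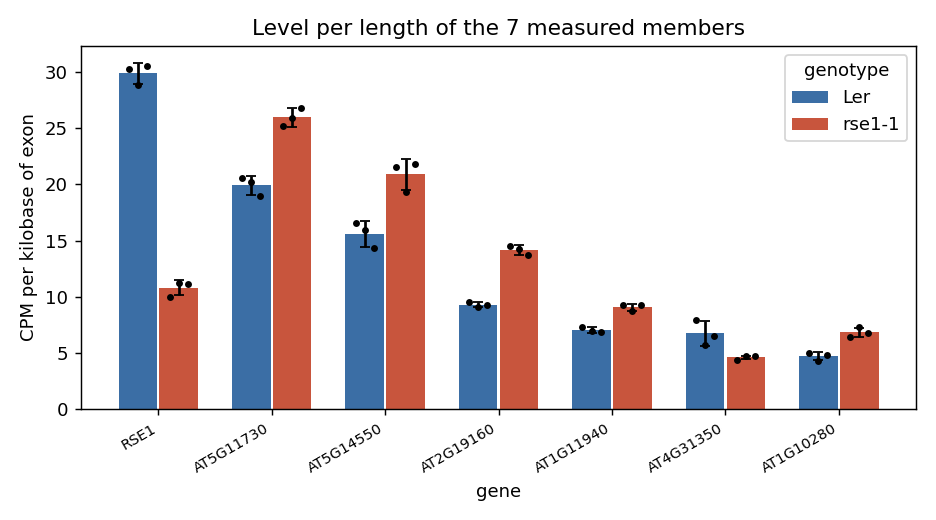
Level of the 7 measured members in CPM per kilobase of exon (vertical axis, from 0) in L*er* and *rse1-1*, with bars for the mean, error bars for the SD and points for the 3 libraries. RSE1 is the highest bar in L*er*, at 29.9, and falls to 10.8 in *rse1-1*, where AT5G11730, AT5G14550 and AT2G19160 exceed it.

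The summed level of the 7 measured members was 192 ± 7.30 CPM in WT and 196 ± 3.10 CPM in *rse1-1* (SD, n = 3), with libraries between 188 and 201 CPM in WT and between 195 and 200 CPM in *rse1-1*. The sums of the genotypes thus overlapped under TMM scaling. With upper quartile scaling, which lowers the log2 fold change of each measured member, the sums were not taken. Within this sum, *RSE1* made up 29.3 ± 1.08% in WT and 10.4 ± 0.621% in *rse1-1*. Without *RSE1*, the sum of the other 6 genes was 136 ± 6.74 CPM in WT and 176 ± 2.83 CPM in *rse1-1*. These sums describe genes chosen for their family and leave out its other genes, such as *AT1G51770*, given below.

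Both measured members with 2 coding exons rose. *AT5G11730* had 44.1, 43.3 and 40.6 CPM in WT and 54.0, 55.4 and 57.4 CPM in *rse1-1*. All mutant libraries lay above all WT libraries, and the log2 fold change was 0.38 (SE 0.0740, adjusted p = 2.51e-04 from edgeR). *AT1G10280* was lower, with 9.63, 8.26 and 9.30 CPM in WT and 12.4, 14.0 and 13.1 CPM in *rse1-1*. Its genotypes did not overlap either, and the log2 fold change was 0.53 (SE 0.123, adjusted p = 0.00113 from edgeR). The translations of these genes are identical at 48.8% of aligned positions.

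Among the genes with 10 or 11 coding exons, *AT2G19160* rose most. It had 26.1, 24.9 and 25.6 CPM in WT and 40.0, 39.1 and 37.8 CPM in *rse1-1*. All mutant libraries were above all WT libraries. The log2 fold change was 0.61 (SE 0.0806, adjusted p = 6.26e-06 from edgeR). The gene closest to it in sequence, *AT4G31350*, went the other way, with 17.5, 12.7 and 14.5 CPM in WT and 9.75, 10.4 and 10.4 CPM in *rse1-1*. The WT libraries of *AT4G31350* were spread more widely than those of any other measured member. They stayed above the mutant libraries, with a log2 fold change of -0.55 (SE 0.133, adjusted p = 0.00152 from edgeR) (-0.66 to -0.43 when single libraries were left out).

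*AT5G14550* had 33.2, 32.1 and 28.8 CPM in WT and 43.3, 38.9 and 44.0 CPM in *rse1-1*. The mutant libraries were all the higher ones, and the gene rose by 0.43 on the log2 scale (SE 0.0873, adjusted p = 4.15e-04 from edgeR). Its locus holds the precursor of the microRNA miR398b, MIR398b, on the opposite strand, and the MIR398b row had no counts. *AT1G11940* had 13.1, 12.4 and 12.2 CPM in WT and 16.5, 15.6 and 16.5 CPM in *rse1-1*, again without overlap. It had the smallest called change of the members, a log2 fold change of 0.37 (SE 0.106, adjusted p = 0.00536 from edgeR).

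Scaling by upper quartiles shifted the median log2 fold change over all tested genes from -0.0086 to -0.20, and the 5 genes that rose stayed above 0, between 0.18 and 0.42. *AT1G11940* was no longer called there (0.18, adjusted p = 0.139, where its alternatives ranged from 0.00315 to 0.139). *RSE1* was at -1.66 and *AT4G31350* at -0.75 with this scaling.

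*AtGnTL*, *AT1G62305* and *AT1G68390* were not measured, with means under 10 counts. *AtGnTL* and *AT1G68390* had no count in any library, and *AT1G62305* had 2 counts in *rse1-1* replicate 1 and none elsewhere. A difference between the genotypes was thus not detectable in these counts. *AtGnTL* starts at 19.3 Mb of chromosome 3, *AT1G62305* at 23.0 Mb and *AT1G68390* at 25.6 Mb of chromosome 1. Within 1 Mb of these genes, 10 of 15 ribosomal protein genes also had a mean under 10 counts (66.7%), against 10 of 48 (20.8%) within 1 Mb of the 7 measured members. Next to *AtGnTL*, the long noncoding RNA *AT3G52072*, which overlaps it by 220 bases on the same strand, had 586, 563 and 706 counts in WT and 1376, 842 and 1003 counts in *rse1-1*. Whether reads of the unmeasured genes were counted elsewhere was not tested.

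The measured members lay at different places in this respect. *AT1G10280* and *AT1G11940* on chromosome 1 and *AT5G11730* and *AT5G14550* on chromosome 5 start within the first 5 Mb, and all 4 rose. Among all genes tested there, 1644 of 4137 were higher and 1654 lower, and among the 8 tested genes of the whole family there 5 were higher and 3 lower, so nothing is read from the place. *RSE1* starts at 7.31 Mb of chromosome 5, *AT2G19160* at 8.31 Mb of chromosome 2 and *AT4G31350* at 15.2 Mb of chromosome 4. Within 1 Mb of *RSE1*, 1 of 9 ribosomal protein genes had a mean under 10 counts, and within 1 Mb of *AT2G19160* 1 of 12. Near *AT4G31350* it was 3 of 5. The part of these places in the values was not tested.

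The rows beside *RSE1* did not share its fall. The gene before it, *J2* (AT5G22060), a DnaJ chaperone, lies 2023 bases away on the opposite strand and had 937, 863 and 995 counts in WT and 3660, 2357 and 3154 counts in *rse1-1*. *J2* rose by 1.43 on the log2 scale (SE 0.0737, adjusted p = 1.81e-10 from edgeR). The gene after it, *AT5G22080*, overlaps the end of *RSE1* by 197 bases on the opposite strand and rose by 0.56 (SE 0.0700, adjusted p = 3.39e-06 from edgeR). The reverse was seen at *AT2G19160*, which rose while *SLP3* (AT2G19170), a subtilisin-like protease gene that overlaps it by 338 bases on the opposite strand, fell by 1.83 on the log2 scale (SE 0.0866, adjusted p = 7.57e-11 from edgeR). The strand setting of the counting is not given in the sources used here, so reads in these overlaps cannot be assigned to a gene from the counts.
Around *AT4G31350*, *AT4G31340* before it had a log2 fold change of 0.44 (adjusted p = 2.61e-04 from edgeR) and *AT4G31351* after it one of -0.28 (adjusted p = 0.0629), which was not called. The neighbours of *AT5G11730*, *AT5G11720* and the arabinogalactan peptide gene *AGP15* (AT5G11740), were not called (-0.05 and -0.14). Beside the unmeasured genes, the transcription factor gene *WRKY6* (AT1G62300), the counted gene before *AT1G62305*, had no counts, and *AT1G68400*, a receptor-like kinase gene after *AT1G68390*, had 0, 0 and 1 counts in WT and 127, 83 and 95 counts in *rse1-1*. After *AT1G62305*, *AT1G62310*, a jumonji domain gene, rose by 1.15 on the log2 scale, and before *AT1G68390* lies the family gene *AT1G68380*. *AT3G52055*, before *AtGnTL*, had no counts, and *AT2G19150*, a pectin lyase-like gene before *AT2G19160*, had 1 count in all. *AT5G14540*, before *AT5G14550*, rose with it, by 0.69 (adjusted p = 5.96e-07 from edgeR). Beside *AT1G11940*, *AT1G11950*, another jumonji domain gene, also rose, by 0.68 (adjusted p = 3.16e-04 from edgeR), and *AT1G11930* was not called (0.08, adjusted p = 0.253). *AT1G10280* rose between *GRP23* (AT1G10270), at -0.46, and *ADL6* (AT1G10290), a dynamin gene, at 0.57, both called.

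**Figure D3:**
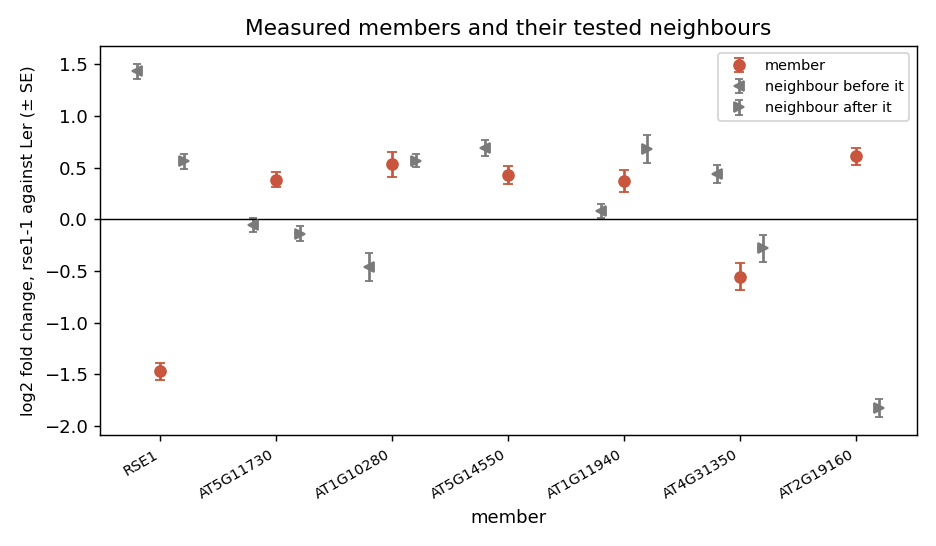
Log2 fold change of *rse1-1* against L*er* (vertical axis, ± SE) for the 7 measured members (circles) and their tested neighbours (triangles, pointing left for the gene before and right for the gene after). RSE1 lies at -1.47 between neighbours at 1.43 and 0.56, and AT2G19160 at 0.61 beside a neighbour at -1.83.

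The 5 genes whose pattern over the 6 libraries was most like that of *RSE1* were taken by the root mean square difference of log2 CPM, each gene being centred on its own mean, over the 11631 genes that averaged 10 CPM or more. They were LSMT-L (AT1G14030), a Rubisco methyltransferase family gene, at a difference of 0.0254, AT4G01310, a ribosomal protein L5P family gene, at 0.0450, AT3G25660, an amidase family gene, at 0.0451, MRL7-L (AT2G31840), a thioredoxin superfamily gene, at 0.0462, and AT3G11490, a Rac GTPase activating protein gene, at 0.0474. LSMT-L fell from 134 ± 4.61 CPM to 47.3 ± 2.86 CPM (SD, n = 3). This likeness rests on 6 libraries of 2 genotypes in which most genes differ, and it describes level alone.

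The other GT14-like genes varied far more than the members. Of the 14 other genes with the family's description, 13 were in the counts and 8 were tested. Of these, 5 were higher and 1 lower in *rse1-1*, with a median log2 fold change of 0.92. Among all tested genes, 38.8% were called higher and 38.3% lower. *AT1G51770* had 245, 229 and 283 counts in WT and 5638, 3454 and 3973 counts in *rse1-1*, and its log2 fold change was 3.83 (SE 0.0870, adjusted p = 4.38e-14 from edgeR). Its level in *rse1-1*, at 224 CPM per kilobase, was above that of every measured member. *AT1G73810* rose from 4.79 ± 1.47 to 46.1 ± 2.38 CPM and *AT5G16170* from 0.628 ± 0.105 to 7.69 ± 0.707 CPM (SD, n = 3), with log2 fold changes of 3.27 and 3.59. All 3 have 2 coding exons, and none starts within the first 5 Mb. *AT4G30060* and *AT1G68380* also rose, by 1.31 and 0.54 on the log2 scale, while *AT5G57270* fell by 0.58.
By gene model, the 10 genes of the family with 2 coding exons gave 6 higher and 1 uncalled of 7 tested. The uncalled gene, *AT3G21310*, had a log2 fold change of -0.37 (adjusted p = 0.190 from edgeR). The 8 genes with 9 to 11 coding exons gave 4 higher, 2 lower and 1 uncalled of 7 tested. Of the 4 genes with a single coding exon, *RSE1* was the only one with counts, and *AtGnTL*, *AT4G32290* and *AT5G25330* had none in any library. These genes without counts start past the first 5 Mb, at 19.3, 15.6 and 8.79 Mb, and their zeros are not read as absent transcripts. These classes were drawn with the values known and were not tested against each other.

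The GT14 genes proper, which include the glucuronosyltransferase genes *GLCAT14A* (AT5G39990), *GLCAT14B* (AT5G15050) and *GLCAT14C* (AT2G37585) of arabinogalactan synthesis, had more genes lower than higher. Of 11 listed genes, 10 were tested, with 3 higher and 6 lower in *rse1-1* and a median log2 fold change of -0.35. Among the lower genes, *AT1G71070* (-0.47, adjusted p = 0.0322 from edgeR), lost its call, leaving 8 called genes of 9, when L*er* replicate 2 or 3 or *rse1-1* replicate 1 or 3 was left out (adjusted p up to 0.154). *GLCAT14B* went from 42.5 ± 3.47 to 30.4 ± 1.36 CPM and *GLCAT14C* from 16.6 ± 1.55 to 10.8 ± 1.16 CPM (SD, n = 3), with log2 fold changes of -0.48 and -0.60 (adjusted p = 1.37e-04 and 4.16e-04 from edgeR). *GLCAT14A* was not called (-0.08, adjusted p = 0.572 from edgeR). *AT3G15350* rose from 37.7 ± 4.16 to 94.8 ± 3.03 CPM, by 1.33 on the log2 scale (SD, n = 3), and *AT4G27480* rose from 2, 2 and 4 counts to 49, 21 and 52 counts. Over the whole annotated family, 25 of 35 genes were tested, and 13 were higher and 9 lower. Among all tested genes, 38.8% were called higher and 38.3% lower, and neither list was tested against these shares.

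**Figure D4:**
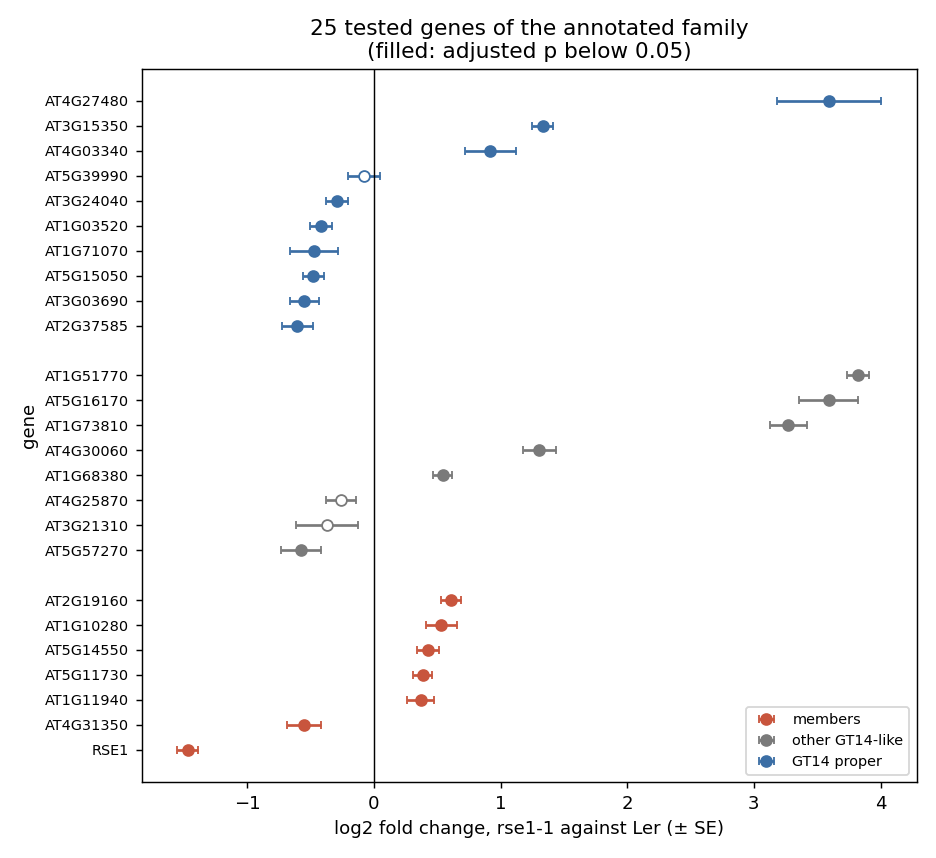
Log2 fold change of *rse1-1* against L*er* (horizontal axis, ± SE) for the 25 tested genes of the family, grouped as members, other GT14-like genes and GT14 genes proper, with filled points for adjusted p under 0.05. The members lie between -1.47 and 0.61, the other GT14-like genes reach 3.83 and 6 of the GT14 genes proper are called below 0.

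Enzymes of related sugar pathways were read from lists of genes known for these steps. The counts of each list stand beside 38.8% of all tested genes called higher and 38.3% called lower. No list was tested against these shares, and nothing is read from the counts about a pathway. The medians depend on the scaling, as that over all tested genes moved from -0.0086 to -0.20 with upper quartiles. Of 15 glycosyltransferase and glucuronic acid methyltransferase genes of arabinogalactan sugar chains, 12 were tested, with 6 higher and 4 lower and a median log2 fold change of 0.30, also with the 2 genes at or near 0 counts in WT put at their lower bounds. The fucosyltransferase gene *FUT4* (AT2G15390) rose from 4.13 ± 1.79 to 196 ± 11.2 CPM, by 5.58 on the log2 scale (SD, n = 3). *HPGT3* (AT2G25300), which adds the first galactose to hydroxyproline, rose by 1.54 on the log2 scale, and *GALT4* (AT1G27120), a galactosyltransferase gene of the same step, fell by 2.12.
All 10 listed genes of Golgi N-glycan processing were tested, with 7 higher and 3 not called, and a median log2 fold change of 0.52. *GnTII* (AT2G05320), an N-acetylglucosaminyltransferase gene, rose from 22.2 ± 2.09 to 65.5 ± 4.38 CPM (SD, n = 3), and *FUT12* (AT1G49710) and *GMII* (AT5G14950), the Golgi mannosidase II gene, rose by 1.11 and 0.58 on the log2 scale. Of 7 genes that supply UDP-GlcNAc, the donor sugar of N-acetylglucosaminyltransferases, 6 were tested, with 3 higher and 2 lower and a median of 0.28. The genes of the final step split, as *GlcNAc1pUT1* (AT1G31070) fell by 1.41 and *GlcNAc1pUT2* (AT2G35020) rose by 0.60 on the log2 scale. *UGNT1* (AT4G32272), a transporter gene for nucleotide sugars, fell by 0.63.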

How the data were processed

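Single-end 75-base reads were trimmed (Trimmomatic) and mapped by the authors with TopHat2 against a genome of L*er*-0 derived from the Col-0 sequence. After removal of duplicates (Picard), unique alignments were assigned to genes by HTSeq. The authors deposited these as raw counts for each gene. Rows naming no gene (47.0% to 48.7% of the entries in a library) were excluded. The annotation version and strand setting are not given in the sources used here.
Genotypes were compared in all 6 libraries with edgeR 4.0.16 (R 4.3.3): TMM scaling, filterByExpr, genotype alone, the quasi-likelihood test and Benjamini-Hochberg adjustment over 16294 genes, with a threshold of 0.05. DESeq2 1.42.0 and limma-voom (limma 3.58.1) were alternatives, beside other scalings, filters, thresholds and left-out libraries. In simulated counts (16216 genes), edgeR recovered 94 of 100 genes changed by a log2 fold of 1 and 100 of 100 changed by 2, with 8 false calls. Only these genes were changed there, equally up and down, whereas 77.0% of the tested genes were called in the data. The simulation thus gives neither a rate of false calls for these data nor the effect of scaling. Gene models and sequences are from RefSeq's TAIR10.1, to which 32835 of 33602 loci matched, and translations were aligned globally (BLOSUM62). Members with a mean under 10 counts were given as not measured. Named were the members, the nearest counted gene on each side, the GT14 and GT14-like genes, up to 3 genes of each other list with the smallest adjusted p-values, and the 5 genes most like *RSE1*. Members and lists were chosen with earlier results of these data known.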

Additional observations from a re-analysis of the deposited data

How the results depend on the processing

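Over 14 alternatives each (DESeq2, limma-voom, RLE, upper quartile and library size scaling, both filters, the replicate block and 6 left-out libraries), 97 of 98 member fold changes kept direction and call, the exception being AT1G11940 with upper quartile scaling (0.18). RSE1 ranged from -1.66 to -1.40. With a log2 fold change beyond 1 also required, 0 members were higher and 1, RSE1, was lower, and the called genes numbered 5175 over all genes, 2 of the GT14 genes proper, 2 of N-glycan processing and 1 of UDP-GlcNAc supply. Of the GT14 genes proper, 8 were called by DESeq2 and with at least 10 counts required in every library, against 9. With the fold threshold, 4 other GT14-like and 7 arabinogalactan genes were called. Under upper quartile scaling, 40.1% of the called genes were higher (5112, with 7633 lower), against 50.3% under TMM. With each library left out in turn, 11911 to 12546 genes were called. Replicate numbers did not pair the libraries: deviations of same-numbered libraries correlated at 0.0424, 0.0759 and -0.0734. With the replicate block, 12546 genes were called against 12549, and no member's call changed.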
